A study of Mus musculus with 6 samples.

Results

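Regulatory T cells were the 371 cells of 61839 that the deposited annotation assigned to a cluster of that name, and they made up 371 of the 6264 lymphoid cells. The cells came from the dissociated lungs of 36 C57BL/6 pups of both sexes, profiled by droplet single-cell RNA sequencing. From the day of birth the pups breathed either room air (21% O2, normoxia) or 85% O2 (hyperoxia), an exposure that impairs alveolar development and serves as a model of bronchopulmonary dysplasia. Lungs were taken at postnatal day (P) 3, 7 or 14, with 6 pups in each of the 6 groups, and nursing dams were moved between the chambers. Cells of several pups were tagged with lipid-anchored sample barcodes (MULTI-seq), pooled in 5 pools and run as 6 libraries, 2 of them from the pool that held both P3 and P7 pups, so pups of a pool share their libraries. The groups held 11 and 14 regulatory T cells at P3, 76 and 74 at P7, and 112 and 84 at P14, in 21% O2 and 85% O2 respectively.

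Regulatory T cells are CD4+ T cells that restrain other immune cells. Their identity rests on the transcription factor *Foxp3*. They take up interleukin-2 through the receptor chain encoded by *Il2ra*, block co-stimulation of other T cells through *Ctla4*, and in large part carry *Ikzf2* (Helios), which many thymus-derived regulatory T cells express. Resting cells use homing receptors such as *Ccr7* to enter lymph nodes, whereas activated cells lose them, divide, settle in tissues such as the lung and can release factors that aid repair, among them the epidermal growth factor receptor ligand *Areg*.

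The cluster was set by gene expression, so the levels of its markers against other cell types describe it and were not tested. Levels are given in CPM, the unique molecular identifiers (UMIs, 1 for each captured transcript) of a gene scaled to a common total of UMIs for the cell type or mouse. *Foxp3* stood at 99.4 CPM, the highest of the 34 annotated cell types, and CD4+ T cells followed at 2.88. *Ctla4* at 513 and *Ikzf2* at 688 CPM were likewise highest in regulatory T cells, with CD8+ T cells next for *Ikzf2* at 329. *Il2ra* at 127 CPM came next after group 2 innate lymphoid cells at 312 and γδ T cells at 156. A *Foxp3* UMI was seen in 29.4% of the cells, an *Il2ra* UMI in 36.4%, a *Ctla4* UMI in 64.4% and an *Ikzf2* UMI in 76.8%. CD4+ T cells, which should lack it, held a *Foxp3* UMI in 0.616%, at a median of 2726 UMIs per cell against 5002. After every cell was thinned to 1000 UMIs, the share with *Foxp3* was 9.04% in regulatory T cells and 0.341% in CD4+ T cells. The receptor that tethers latent TGF-β, *Lrrc32*, was found at 50.1 CPM, and the folate receptor *Izumo1r* at 107 was highest of all types. The plot of marker shares by lymphoid type shows how these genes set the cluster apart.

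**Figure D1:**
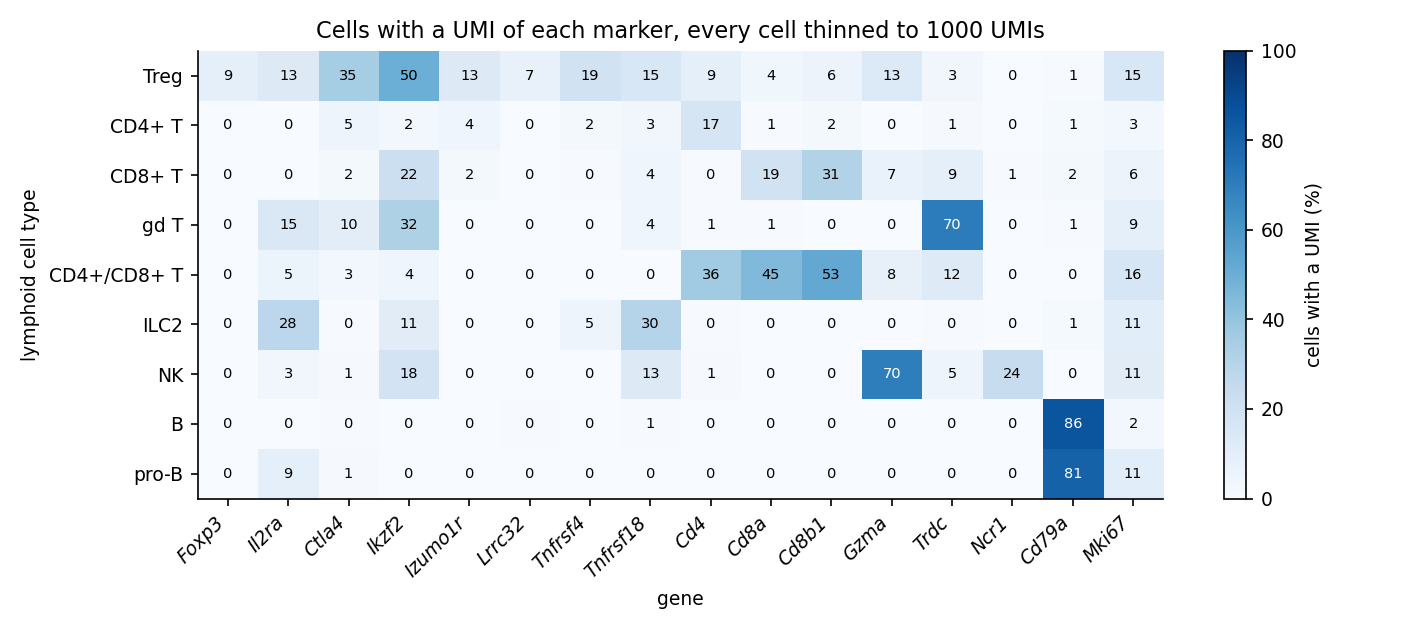
Percentage of cells with at least 1 UMI of each gene in the 9 lymphoid cell types, after every cell was thinned to 1000 UMIs; columns are genes, rows are cell types and the shade gives the percentage. The regulatory T cell row is darkest for Ikzf2 (49.9%) and Ctla4 (35.3%), and Foxp3 stands at 9.04% there and at 0.341% in CD4+ T cells.

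Not every cell held a marker. Of the 371 cells, 46 had a UMI of none of the 4 markers, 86 of 1, 91 of 2, 92 of 3 and 56 of all 4. A UMI of *Cd4* was found in 132 cells, and a T cell receptor chain (*Cd3e*, *Cd3d*, *Cd3g* or *Trac*) in 368. A UMI of *Cd8a* or *Cd8b1*, the chains of the CD8 co-receptor of cytotoxic T cells, was found in 57 cells, of which 6 also held *Foxp3* and 6 also held *Cd4*. These 57 cells carried the cytotoxic granule gene *Gzma* in 75.4%, *Gzmb* in 68.4% and *Nkg7* in 84.2%, against 5.73%, 12.1% and 24.5% of the other 314 cells. They carried *Foxp3* in 10.5%, against 32.8%, although their median UMI count was higher (7959 against 4626). Of other lineages, *Cd79a* of B cells was seen in 1.89% of the cluster, *Ncr1* of NK cells stood at 1.59 CPM, and a UMI of the γδ T cell genes *Trdc* or *Tcrg-C1* was found in 40 cells. *Sftpc* of alveolar type 2 cells, an abundant transcript in the lung that lymphocytes do not make, gave a UMI in 93.8% of regulatory T cells.

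Cells with a CD8 chain were not spread evenly over the mice. At P14 they were 24 of 84 cells in 85% O2 (28.6%, exact 95% binomial interval 19.2 to 39.5, which covers counting error only) and 11 of 112 in 21% O2 (9.82%, 5.01 to 16.9). In 85% O2 they were 10 of 20 cells in replicate 2 and 11 of 26 in replicate 3, but 1 of 12 in replicate 1 and 0 of 12 in replicate 5. At P7 they were 10 of 76 in 21% O2 and 10 of 74 in 85% O2. The main results at P14 are therefore given with and without them. The sample barcode that assigned a cell to its mouse was also its most abundant one in 330 of the 371 cells, and 6 cells had a cell barcode that another library also held. The median share of a cell's tags that came from its own barcode was 50.2% here, 51.3% in the other lymphoid cells and 73.9% in all cells.

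**Figure D2:**
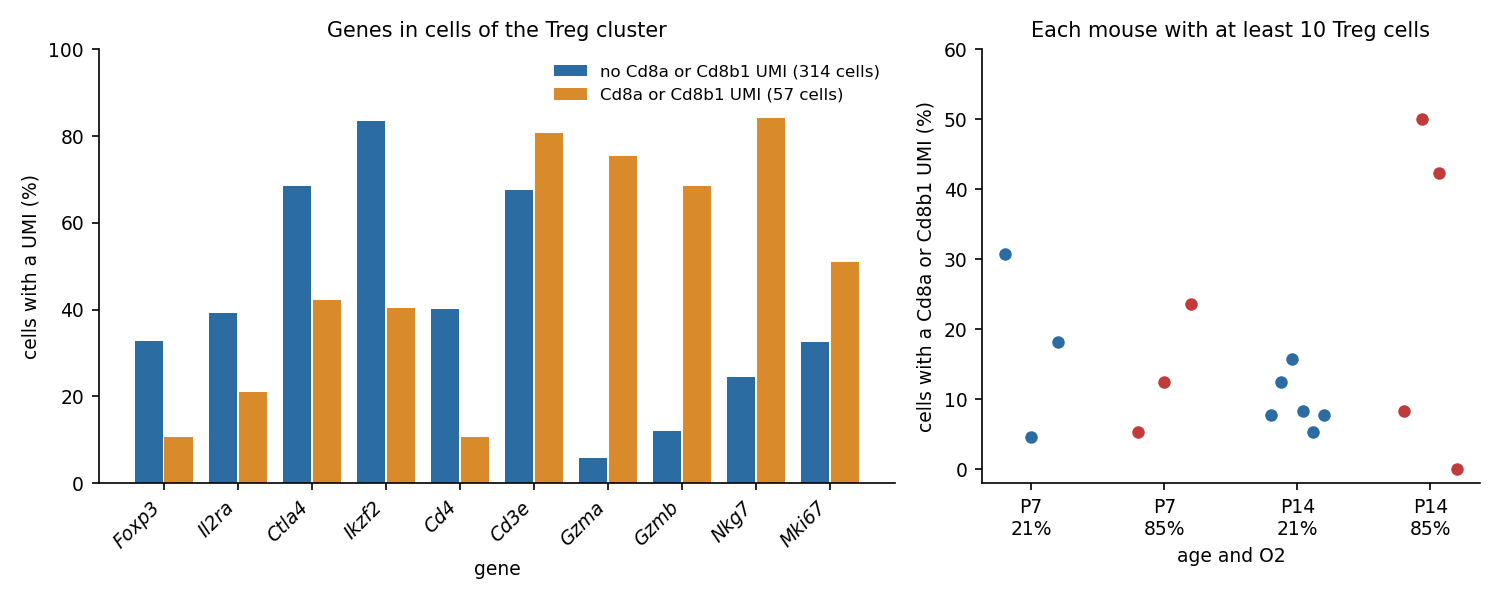
Left, percentage of regulatory T cells with a UMI of each gene among the 57 cells with a CD8 chain UMI and the 314 without; right, percentage of each mouse's regulatory T cells that held a CD8 chain UMI, 1 point a mouse, for mice with at least 10 cells. In 85% O2 at P14, replicates 3 and 2 stand at 42.3% and 50%, above every other mouse.

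The first question was whether hyperoxia changed how many regulatory T cells the lung yielded. No difference was detected at any age, and the share rose with age at both oxygen levels. As a percentage of all cells of a mouse, regulatory T cells were 0.123% ± 0.125 (SD, n = 6) in 21% O2 and 0.129% ± 0.145 (n = 6) in 85% O2 at P3, 0.727% ± 0.249 and 0.942% ± 0.502 at P7, and 0.925% ± 0.439 and 0.990% ± 0.666 at P14. The oxygen differences had adjusted p = 0.957, 0.632 and 0.911 (two-sided exact permutation tests over mice, Benjamini-Hochberg over 34 cell types and 3 ages). At P3, 3 mice yielded no regulatory T cell, which allows shares of up to 0.294%, 0.259% and 0.144% in them. From P3 to P7 the share rose by 0.604 percentage points in 21% O2 (exact permutation test, adjusted p = 0.0232, n = 6 a group) and by 0.813 in 85% O2 (exact permutation test, adjusted p = 0.0353). From P7 to P14 it moved by 0.198 and 0.0489 percentage points (exact permutation tests, adjusted p = 0.598 and 0.917). P14 lungs were in pools of their own, so age and pool cannot be told apart there. Within pools the oxygen difference turned direction: at P7 the shares in 21% O2 and 85% O2 were 0.746% and 0.592% in the pool shared with P3 and 0.807% and 1.17% in the other, and at P14 0.692% and 1.44% in the first pool and 1.06% and 0.505% in the second. Within the 1 pool that held both P3 and P7 pups, 4 of 3008 and 41 of 5497 cells were regulatory T cells in 21% O2 (0.133% and 0.746%), and 10 of 4429 and 31 of 5235 in 85% O2 (0.226% and 0.592%).

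Among lymphoid cells the picture depended on the pool. Regulatory T cells made up 2.61% ± 2.14 and 2.89% ± 2.87 of lymphoid cells at P3 (n = 6), 8.94% ± 5.08 and 6.92% ± 3.01 at P7, and 5.28% ± 1.96 and 8.71% ± 4.94 at P14, in 21% O2 and 85% O2. None of the oxygen differences passed the test (exact permutation tests, adjusted p = 0.904, 0.873 and 0.460). At P7 in 21% O2 they were 13.9% of lymphoid cells in the pool shared with P3 and 4.61% in the other pool, where lymphoid cells themselves were more numerous (759 against 296). At P14 in 85% O2 they were 12.1% in the first pool and 5.27% in the second, against 4.01% and 6.30% in 21% O2, so the direction of the P14 difference turned between pools. On this scale the age differences did not pass the test either (adjusted p between 0.143 and 0.739, exact permutation tests). A change in the number of regulatory T cells cannot be told apart from a change in the other cells counted or in their release by dissociation.

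**Figure D3:**
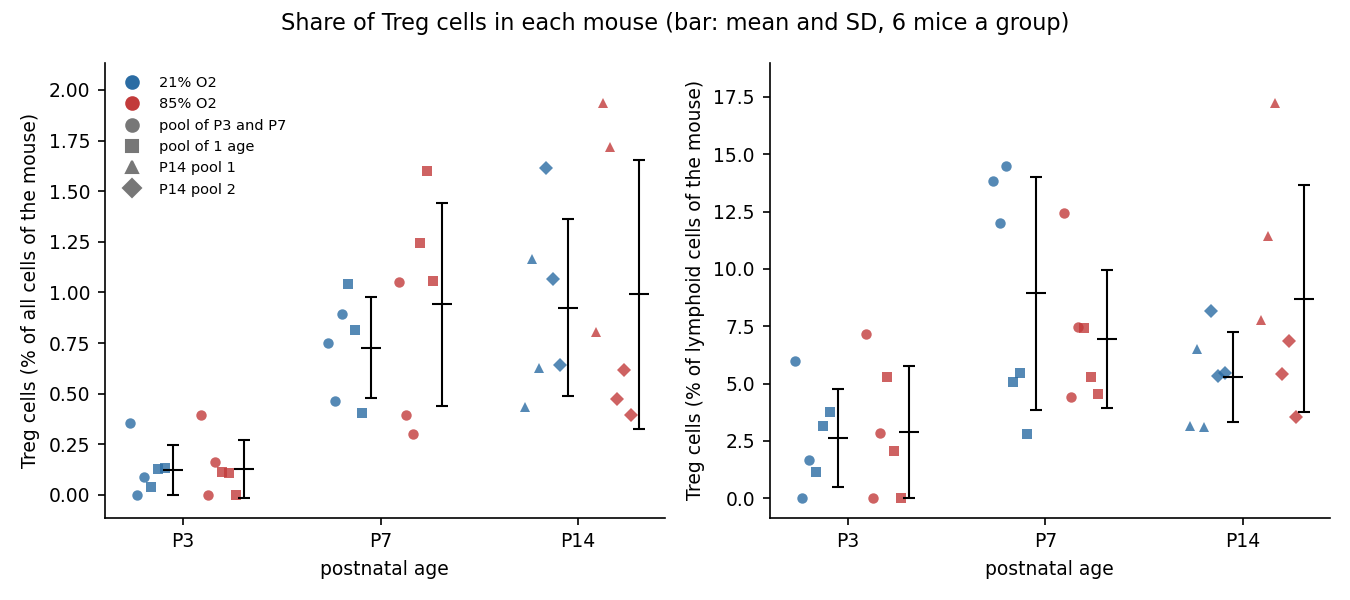
Regulatory T cells of each of the 36 mice as a percentage of all cells (left) and of lymphoid cells (right) by age; blue is 21% O2, red 85% O2, the marker shape gives the pool, and bars give the mean and SD of 6 mice. Shares at P3 lie below most of those at P7 and P14, and the oxygen groups overlap at every age.

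For gene expression, the UMIs of a mouse's regulatory T cells were summed, and the 16 mice with at least 10 such cells were compared: 3 and 3 mice at P7 (57 and 60 cells) and 6 and 4 mice at P14 (112 and 70 cells), in 21% O2 and 85% O2. No P3 mouse had enough. The sums held 39190 to 226981 UMIs, so that 3 UMIs correspond to between 13.2 and 76.6 CPM, and genes below about that level are read with care. Called genes passed an adjusted p of 0.05 in edgeR's quasi-likelihood test, Benjamini-Hochberg adjusted over all genes tested, and were detected in 10% or more of the cells of either group. UMIs per cell differed between the oxygen levels: the median UMI count of a mouse's regulatory T cells was lower in 85% O2 than in 21% O2 at P7 (5733 ± 2045, n = 5, against 10166 ± 3770, n = 6, exact permutation test, p = 0.0433) and higher at P14 (4873 ± 1657 against 3194 ± 305, n = 6 each, exact permutation test, p = 0.0411). In the mice with at least 10 cells the P7 difference was -1872.5 UMIs (n = 3 each, exact permutation test, p = 0.2, where the smallest p possible is 0.1). Sequencing depth and RNA content per cell cannot be told apart here, and a fit on equal UMIs per cell called 191 genes at P14.

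With both ages in 1 fit, 0 of 2106 genes were called for oxygen (edgeR, percentage called 0), with 241 at an unadjusted p under 0.05, and DESeq2 called 5. The ages differed. At P7, 1 of 2925 genes was called (0.0342%), and at P14, 130 genes were higher in 85% O2 (4.44%) and 133 lower (4.55%). The hyperoxic regulatory T cells at P14 were higher in 18 of 24 cell cycle genes and lower in 8 of 10 tested genes of the naive state and of lymph node homing. *Foxp3* was not called. Leaving out the cells with a CD8 chain left 136 genes called at P14. Of the 263 called with them, 238 were still tested, 117 were called and 1 changed direction. Without replicate 3 of 85% O2, of the P14 mice the one with the most such cells and the most UMIs, 111 were called.

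Of the 4 markers of the cluster, *Ctla4* and *Ikzf2* were called lower at P14 and *Foxp3* and *Il2ra* were not. The cluster was set by gene expression, so these tests cover only cells assigned to it. Any cells that lost a marker and were assigned elsewhere are not seen here. *Foxp3* (chromosome X, 7573644 to 7595245, GRCm38) stood at 60.8, 148, 119, 46.9, 60.5 and 102 CPM in the 6 mice in 21% O2 and at 90.9, 60.2, 27.4 and 128 in the 4 in 85% O2. The groups overlapped, and the log2 change of -0.58 ± 0.40 (SE) was not called (edgeR, adjusted p = 0.38). *Il2ra*, the interleukin-2 receptor α chain, ranged from 103 to 230 in 21% O2 and from 119 to 195 in 85% O2, with a log2 change of 0.12 ± 0.26. *Ctla4* stood at 851, 558, 502, 516, 484 and 970 CPM in 21% O2 and at 234, 279, 187 and 399 in 85% O2. All 4 hyperoxic mice were below all 6 normoxic ones, and *Ctla4* fell by 1.27 ± 0.24 on the log2 scale (edgeR, adjusted p = 0.0012). *Ikzf2* (Helios) fell by 0.78 ± 0.24 (edgeR, adjusted p = 0.042), but replicate 5 of 85% O2, with no CD8 chain cell, stood at 1037, within the range of 713 to 1072 in 21% O2, and the other 3 hyperoxic mice at 360 to 454. Without cells holding a CD8 chain neither was called: *Ctla4* was at -0.71 (edgeR, adjusted p = 0.095), *Ikzf2* at -0.30 (edgeR, adjusted p = 0.36) and *Foxp3* at -0.01.

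Of the 12 genes listed for regulatory T cell identity, 10 were tested, 0 were higher and 3 were lower at P14, namely *Ctla4*, *Ikzf2* and *Lrrc32* (-1.99 ± 0.64, edgeR, adjusted p = 0.049). Their median log2 change was -0.52, beside -0.01 for all genes tested, but it was -0.16 with 0 called without CD8 chain cells and 0.07 with 1 called without replicate 3 of 85% O2. Among the others, log2 differences were -0.79 ± 0.35 for the folate receptor *Izumo1r*, 0.34 ± 0.38 for the co-stimulatory receptor *Tnfrsf18* (GITR) and, for *Tnfrsf4* (OX40), 0.12 ± 0.37, none of them called. At P7 none of the 10 was called.

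Most listed cell cycle genes were higher in 85% O2 at P14. All 24 were tested, 18 were called higher and 0 lower, with a median log2 change of 1.57. *Mki67* (chromosome 7, 135689784 to 135716361), a protein of dividing nuclei, stood at 142, 320, 172, 216, 212 and 25.5 CPM in 21% O2 and at 636, 459, 630 and 495 in 85% O2. The groups did not overlap, and the log2 change was 1.44 ± 0.26 (edgeR, adjusted p = 0.0011). *Top2a*, the topoisomerase that untangles replicated DNA, stood at 20.3, 164, 172, 216, 45.4 and 0 in 21% O2 and at 493, 354, 593 and 622 in 85% O2, a log2 change of 2.01 ± 0.35. *Ube2c*, which drives the destruction of mitotic cyclins, changed by 2.59 ± 0.48, *Cenpf* of the kinetochore by 2.58 ± 0.54, cyclin A2 (*Ccna2*) by 2.46 ± 0.50 and the mitotic kinase *Cdk1* by 2.30 ± 0.50. *Rrm2*, which makes the building blocks of DNA, changed by 2.05 ± 0.47. The 6 genes not called were *Aurkb*, *Ccnb1*, *Mcm3*, *Mcm5*, *Pcna* and *Tyms*, the last 4 of them genes of DNA replication. Summed over the list, the level was 1327 to 5498 CPM in 21% O2 and 9534 to 13251 in 85% O2.

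Without the CD8 chain cells 14 of 23 cell cycle genes tested were higher, with *Mki67* at 1.34 (edgeR, adjusted p = 0.048) and *Top2a* at 2.61. Replicates 1 and 5 of 85% O2, with 1 and 0 CD8 chain cells, had summed cell cycle levels of 10815 and 11091 CPM, above every normoxic P14 mouse. The next counts are over all P14 regulatory T cells, with CD8 chain cells included and mice pooled. Cells with a *Mki67* UMI were 35 of 84 in 85% O2 (41.7%) and 21 of 112 in 21% O2 (18.8%), and 22.2% and 9.09% after thinning to 1000 UMIs. The deposited cell cycle phase calls went the other way: 63 of 84 cells (75%) and 90 of 112 (80.4%) were called S or G2/M. The number of genes called for this list ranged from 13 to 18 when 1 mouse of a group of 3 or 4 was left out and was 6 of 16 when 10 cells were drawn from each mouse.

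**Figure D4:**
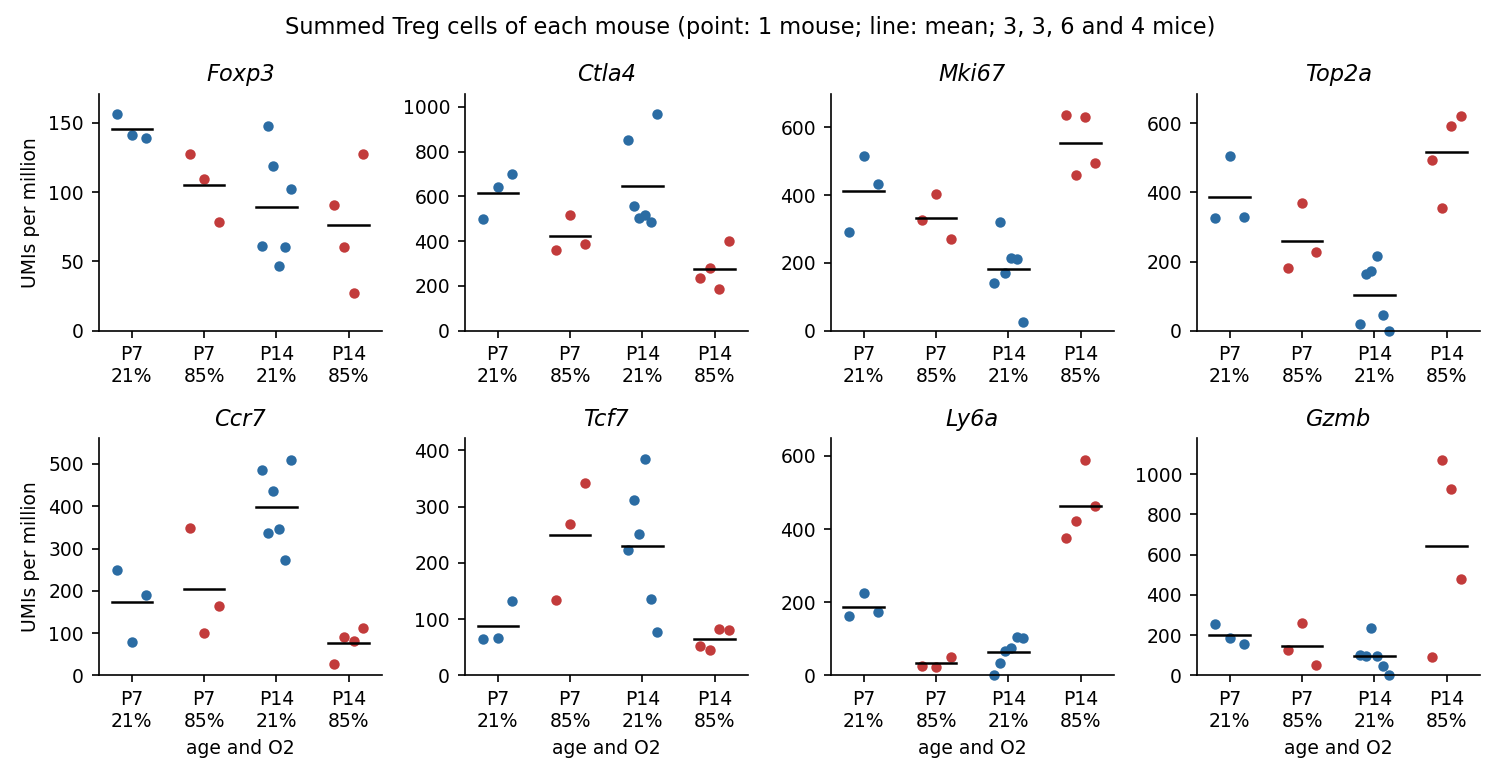
CPM of 8 genes in the summed regulatory T cells of each of the 16 mice with at least 10 cells, in 4 groups of age and oxygen; each point is 1 mouse and the line is the group mean. At P14 the mice in 85% O2 lie above those in 21% O2 for Mki67, Top2a and Ly6a and below them for Ctla4 and Ccr7, while Foxp3 and Tcf7 overlap.

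The promoters of these genes are shown because 18 genes of the list were called in the same direction. Of the 18, 15 had a promoter in the RefSeq table (GRCm38.p6), and the window from 250 bases before to 50 after the start was searched on both strands for the letters CCAAT, the box bound by NF-Y, and for the letters TTTGAA, a core of the cell cycle genes homology region. CCAAT was found in 12 of 15 (80%), against 37.4% of all 32851 promoters in the table and 36.9% of those of genes tested. TTTGAA was found in 8 of 15 (53.3%), against 17.9% and 12.7%. A match describes these letters and is not a shown binding site. All 15 promoters came from the cell cycle list, so these shares describe promoters of that list. A link to oxygen was not tested. The 250 bases before the start follow for 4 of them, 5′ to 3′, with matches to either motif in capitals (on the other strand these read ATTGG and, for the second motif, TTCAAA), from chr10:69352913-69353162 (minus strand, *Cdk1*), chr11:99024190-99024439 (minus, *Top2a*), chr7:135716380-135716629 (minus, *Mki67*) and chr2:164769679-164769928 (plus, *Ube2c*). Where 2 matches overlap, as in CCAATTGG of *Ube2c*, both are counted.
Cdk1: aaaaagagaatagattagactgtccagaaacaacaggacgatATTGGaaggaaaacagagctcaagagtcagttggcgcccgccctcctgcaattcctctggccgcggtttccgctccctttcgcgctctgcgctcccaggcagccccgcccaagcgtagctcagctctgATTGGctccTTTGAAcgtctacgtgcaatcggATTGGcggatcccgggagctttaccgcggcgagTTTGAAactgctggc
Top2a: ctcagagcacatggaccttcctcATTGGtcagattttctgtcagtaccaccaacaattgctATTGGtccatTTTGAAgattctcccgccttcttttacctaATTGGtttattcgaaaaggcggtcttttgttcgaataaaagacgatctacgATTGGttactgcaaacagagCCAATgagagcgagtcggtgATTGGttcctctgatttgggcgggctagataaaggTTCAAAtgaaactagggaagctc
Mki67: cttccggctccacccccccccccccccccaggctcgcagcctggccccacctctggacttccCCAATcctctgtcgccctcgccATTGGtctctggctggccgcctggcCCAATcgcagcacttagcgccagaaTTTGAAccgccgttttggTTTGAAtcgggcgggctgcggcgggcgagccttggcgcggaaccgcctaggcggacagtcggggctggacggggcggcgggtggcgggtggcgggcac
Ube2c: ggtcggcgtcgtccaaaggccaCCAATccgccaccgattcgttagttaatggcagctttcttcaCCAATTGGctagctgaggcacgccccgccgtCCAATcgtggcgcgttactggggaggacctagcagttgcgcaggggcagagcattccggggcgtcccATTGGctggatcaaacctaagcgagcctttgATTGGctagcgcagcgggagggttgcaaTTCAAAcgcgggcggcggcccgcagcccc

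*Cdk1* and *Mki67* each hold 3 CCAAT and 2 TTTGAA matches in this stretch, *Top2a* 6 and 2, and *Ube2c* 6 and 1. Promoters of the naive genes that fell hold CCAAT in 1 of 9 (5 genes matched) and TTTGAA in 0 of 9.

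Most tested genes of the naive state and of lymph node homing were lower in 85% O2 at P14. Of 12 listed, 10 were tested, 8 were lower in 85% O2 and 0 higher, with a median log2 change of -1.61. *Ccr7* (chromosome 11, 99144196 to 99155077), the chemokine receptor for entry into lymph nodes, stood at 486, 336, 436, 347, 272 and 510 in 21% O2 and at 26.0, 90.4, 82.1 and 112 in 85% O2. The groups did not overlap, and the log2 change was -2.30 ± 0.37 (edgeR, adjusted p = 0.00037). *Tcf7*, the transcription factor TCF-1 of naive and memory-like T cells, ranged from 76.6 to 385 in 21% O2 and from 45.2 to 82.1 in 85% O2, and changed by -1.94 ± 0.38. *Il6ra*, the interleukin-6 receptor, changed by -2.82 ± 0.42, *S1pr1*, the receptor for exit from lymphoid tissue, by -1.27 ± 0.32, *Klf2*, which drives *S1pr1*, by -1.19 ± 0.30, *Lef1* by -1.24 ± 0.33 and the interleukin-7 receptor *Il7r* by -0.90 ± 0.28. Of the 2 not called, *Satb1* had a log2 difference of -0.38 ± 0.23 and *Bach2*, a repressor of effector genes, of -2.12.

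Without CD8 chain cells 6 of 10 genes stayed lower, with *Ccr7* at -1.68 (edgeR, adjusted p = 0.03) and *Tcf7* at -1.32, while *Lef1* and *Il7r* were no longer called. Leaving out 1 mouse of a group of 3 or 4 left 5 to 8 called, and drawing 10 cells from each mouse left 1 of 8.

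**Figure D5:**
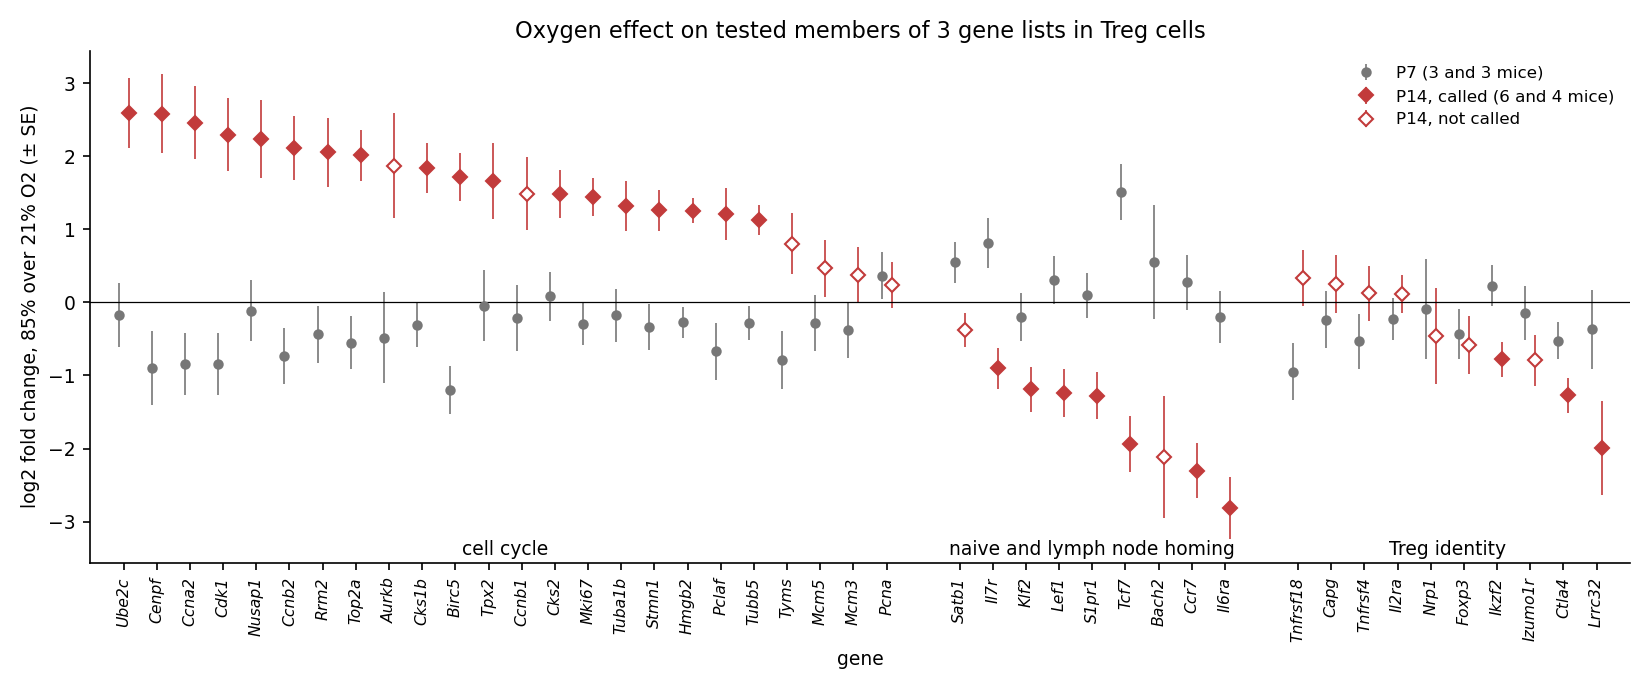
Log2 change between 85% O2 and 21% O2 with its SE for tested genes of the cell cycle, naive and homing, and identity lists, at P7 (grey) and P14 (red); red diamonds are filled where edgeR called the gene, and grey circles were not called. At P14 18 filled cell cycle genes lie above 0 and all filled naive genes below it.

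*Ly6a* (Sca-1, chromosome 15, 74994877 to 74998031), a surface protein that interferons and T cell activation raise, had the largest rise at P14 among the genes named by the rule. It stood at 0, 32.8, 66.0, 75.0, 106 and 102 CPM in 21% O2 and at 377, 422, 589 and 463 in 85% O2. Every hyperoxic mouse was above every normoxic one, with a log2 change of 2.89 ± 0.30 (7.44-fold higher, edgeR, adjusted p = 1.2e-06). *Ly6a* was also the 1 gene called at P7, in the other direction: 164, 225 and 173 in 21% O2 and 26.8, 22.8 and 49.9 in 85% O2, a log2 change of -2.53 ± 0.40 (edgeR, adjusted p = 0.0031). The call at P7 was lost without CD8 chain cells (-2.48, edgeR, adjusted p = 0.13) and with all mice of at least 5 cells (-2.55, edgeR, adjusted p = 0.22), with 10 cells from every mouse (-2.79, edgeR, adjusted p = 0.1) and without the pool shared by P3 and P7 (-2.36, edgeR, adjusted p = 0.62). The call at P14 stood under all 21 alternatives, at log2 changes of 2.56 to 3.49.

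Among genes of suppression and repair, 6 of 14 listed were tested at P14, 2 were higher and 0 lower. *Gzmb*, a granule protease that regulatory as well as cytotoxic T cells use to kill, stood at 101, 98.5, 238, 93.8, 45.4 and 0 CPM in 21% O2 and at 90.9, 1069, 926 and 479 in 85% O2. Replicate 1 of 85% O2 lay within the normoxic range, and the log2 change was 2.68 ± 0.46 (edgeR, adjusted p = 0.00073). Without CD8 chain cells it was 2.54 ± 0.84 and not called (edgeR, adjusted p = 0.074). *Lgals1*, the suppressive lectin galectin-1, rose by 0.95 ± 0.17 (edgeR, adjusted p = 0.0011), from 1149 to 1928 CPM in 21% O2 to 2350 to 3728 in 85% O2, and kept its call without those cells (0.72). *Areg* stood at 273, 75.3, 68.4 and 63.8 in 85% O2 and was at 0 in 3 of the 6 mice in 21% O2, with the others at 60.8, 93.8 and 90.8, and it was not called (1.36 ± 0.84). *Tgfb1* had a log2 difference of 0.45 ± 0.30 and was not called. *Il10* was too low to be tested and at 0 UMIs in all 4 hyperoxic P14 mice, where 3 UMIs would correspond to between 13.7 and 47.9 CPM. In the 6 normoxic P14 mice it ranged from 0 to 106 CPM, with a median of 9.38.

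Of genes of activated and tissue regulatory T cells, 14 of 18 were tested, 2 were higher and 0 lower. *Cxcr6*, a chemokine receptor of T cells resident in tissue, stood at 40.5, 16.4, 106, 56.3, 90.8 and 0 CPM in 21% O2 and at 506, 211, 183 and 144 in 85% O2. The groups did not overlap, and the log2 change was 2.20 ± 0.48 (edgeR, adjusted p = 0.005). It was highest in replicate 1, a mouse with 1 CD8 chain cell, and was 2.37 without such cells. The co-stimulator *Icos* (0.02 ± 0.21), the interleukin-33 receptor *Il1rl1* (-0.60 ± 0.40) and *Rora* (0.22 ± 0.20) were not called.

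The other groups are given with their counts, beside the 4.44% of all genes tested that were higher and the 4.55% that were lower. Of 12 tested genes of the unfolded protein response, 5 were higher at P14 and 1 lower: the chaperones and folding enzymes *Pdia6* (1.79 ± 0.33), *Sdf2l1* (1.83 ± 0.45), *Hsp90b1* (1.2 ± 0.21), *Calr* (0.98 ± 0.23) and *Manf* (0.88 ± 0.24) rose, and the stress transcription factor *Atf4* fell by 1.0 ± 0.31 on the log2 scale, and 3 of 11 were higher and 0 lower without CD8 chain cells. Of 15 interferon response genes 3 were higher, the nucleic acid sensor *Zbp1* (1.5 ± 0.39) and the immunoproteasome subunits *Psmb9* (1.08 ± 0.23) and *Psmb8* (0.92 ± 0.17). In glycolysis 3 of 10 were higher (*Eno1*, *Aldoa* and *Ldha*), 2 without CD8 chain cells and 0 without replicate 3 of 85% O2. In oxidative phosphorylation 2 of 16 were higher (*Uqcrq* and *Cox5b*), 0 without CD8 chain cells and 1 without that replicate. Of 9 genes of interleukin-2 signalling 2 were higher, the feedback inhibitor *Cish* (1.53 ± 0.46) and *Odc1* of polyamine synthesis (1.59 ± 0.33), and the signal transducer *Stat5b* was lower (-1.48 ± 0.32), a call that was lost without CD8 chain cells (-1.17, edgeR, adjusted p = 0.083). Of 11 genes of the TNF receptor family and NF-κB 3 were lower, *Cd27* (-1.28 ± 0.32), *Rel* (-1.21 ± 0.31) and *Tnfaip3* (-0.63 ± 0.20). Without CD8 chain cells 1 was higher and 1 (*Cd27*) lower, and without replicate 3 of 85% O2 or with all mice of at least 5 cells 0 were lower. In the TGF-β pathway *Furin*, which cleaves the TGF-β precursor, rose by 1.95 ± 0.58 and *Lrrc32* fell, of 8 tested, and without replicate 3 of 85% O2 neither was called. Of 10 oxidative stress genes 1 was higher (*Txn1*, 0.77 ± 0.17), of 6 p53 response genes 1 was lower (*Trp53inp1*, 0 without CD8 chain cells), and of 12 immediate early and heat shock genes 0 were called. Of 14 T cell receptor genes 1 was higher, the α chain *Trac* (0.96 ± 0.20), and 0 were lower. Without CD8 chain cells, or without replicate 5 of 85% O2, 1 of 14 was higher and 1 lower. With equal UMIs per cell these counts were 1 and 1 of 13. Among 14 ligands to other lung cells 1 was higher, *Hmgb2*, which is also a cell cycle gene.

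The largest falls among genes outside the lists were those of the sialyltransferase *St8sia6* (-4.43 ± 0.99), *Fam169b* (-2.57 ± 0.60), *4833420G17Rik* (-2.40 ± 0.52), *Actn1* (-2.33 ± 0.63), *Ikbke* (-2.33 ± 0.63), the co-receptor *Slamf6* (-2.28 ± 0.43) and *Smim4* (-2.04 ± 0.55). The largest rises outside the lists, beside *Ly6a*, were those of the histone gene *Hist1h4d* (2.46 ± 0.70) and of *Prc1* (2.43 ± 0.51), which bundles microtubules when cells divide. *St8sia6* was near the floor in 85% O2, with UMIs in 1 of 4 mice. Of these genes *4833420G17Rik*, *Slamf6* and *Prc1* were called without CD8 chain cells, and the others were too low to be tested there.

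Markers of other cells moved as follows at P14. Of 8 CD8 and cytotoxic genes tested, 1 was higher, *Cd8a*, at 0, 377, 265 and 0 CPM in the 4 hyperoxic mice and 0 to 66.0 in 21% O2. Summed over 15 CD8 and cytotoxic genes the level ran from 587 to 7765 CPM in 21% O2 and from 247 to 11017 in 85% O2. Both tested epithelial genes were lower, *Sftpc* by 0.59 ± 0.19 and the club cell gene *Scgb1a1* by 0.71 ± 0.21 on the log2 scale, as were *Pecam1* of endothelium (1 of 1) and *Ighm* of B cells (1 of 3, -1.75 ± 0.29). Summed levels over the 9 epithelial genes were 1277 to 2399 in 21% O2 and 979 to 1420 in 85% O2, and over the 8 B cell genes 291 to 1198 and 95.8 to 399. No gene of the NK cell or neutrophil lists was tested, and 0 of 1 or 2 tested genes was called for γδ T cells, group 2 innate lymphoid cells, macrophages, stroma and erythroid cells. Without CD8 chain cells *Sftpc*, *Scgb1a1* and *Pecam1* were not called and *Ighm* was (-1.42). The part of these RNAs in the other results was not tested. *Xist*, expressed in females, was at 9.38 or 15.1 CPM in 2 of the 6 normoxic and at 4.56 to 16.0 in 3 of the 4 hyperoxic P14 mice, and at 345 to 1611 in the rest, and it was not called (-1.57 ± 1.07). By these levels females were fewer among the 4 hyperoxic P14 mice of the fit than among the 6 normoxic ones. The paper, which genotyped sex by PCR, reports an equal distribution of the sexes over its P14 samples. Those include hyperoxic mice with too few regulatory T cells for the fit. Sex was not a term of the fit, and its part in the P14 results was not tested.

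At P7, with 3 mice a group, the other key genes were not called. *Foxp3* stood at 156, 141 and 139 CPM in 21% O2 and at 127, 110 and 78.4 in 85% O2, a log2 change of -0.44 ± 0.34. *Ctla4* stood at 498, 643 and 700 CPM in 21% O2 and at 361, 516 and 385 in 85% O2, a log2 change of -0.52 ± 0.25. For *Foxp3* every hyperoxic mouse lay below every normoxic one, and for *Ctla4* the groups overlapped. *Mki67* of dividing cells stood at 292, 515 and 434 CPM in 21% O2 and at 328, 402 and 271 in 85% O2, a log2 change of -0.30 ± 0.29. *Ccr7* of lymph node homing stood at 249, 79.3 and 191 CPM in 21% O2 and at 348, 101 and 164 in 85% O2, a log2 change of 0.27 ± 0.38. For *Mki67* and *Ccr7* the groups overlapped. The summed cell cycle level at P7 was 9730 to 11010 CPM in 21% O2 and 6523 to 10336 in 85% O2.

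Whether the oxygen effect differed between the ages was tested directly. It did for 126 genes, 71 with a higher effect at P14 (2.43%) and 55 with a lower one (1.88%). The effect on *Ly6a* differed by 5.42 ± 0.50 on the log2 scale (edgeR, adjusted p = 8.5e-08), that on *Tcf7* by -3.45 ± 0.54, *Gzmb* by 3.01 ± 0.72 (2.94 and not called without CD8 chain cells, edgeR, adjusted p = 0.21), *Ccr7* by -2.58 ± 0.54 and *Il7r* by -1.72 ± 0.44. Of the cell cycle list 15 of 24 had a higher effect at P14, among them *Mki67* (1.74 ± 0.39), *Cdk1* (3.14 ± 0.66), *Ccnb2* (2.84 ± 0.59) and the survival factor *Birc5* (2.91 ± 0.46), and 5 of 10 naive genes had a lower one. These counts were 3 of 23 and 2 of 10 without CD8 chain cells. Of the identity list 0 of 10 differed. There were 3 mice a group at P7, and 33 calls remained of the 126 without CD8 chain cells, and 9 without the pool shared by P3 and P7, which left 1 normoxic P7 mouse that is assumed to vary like the other groups. *Cd74*, the invariant chain of antigen-presenting cells, had an effect lower at P14 by 5.70 ± 1.11 on the log2 scale, with 201, 27.4 and 271 CPM in 85% O2 at P7 and 13.0 to 22.8 at P14. For the B cell gene *Cd79b* the effect differed by -4.52 ± 1.24 (edgeR, adjusted p = 0.033). It ranged from 18.3 to 114 CPM in 85% O2 at P7 and from 0 to 39.0 at P14.

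In room air, most tested cell cycle and glycolysis genes were lower at P14 than at P7. In all, 178 genes were higher at P14 (6.09%) and 158 lower (5.4%). The median UMI count per cell in 21% O2, given above, was also lower at P14 than at P7. With equal UMIs per cell 81 were higher and 89 lower. The split was 46 and 97 without P7 replicate 1, 33 and 73 without replicate 3 and 168 and 187 without replicate 4. It was 68 and 330 without a filter on low counts and 219 and 177 with all mice of at least 5 cells. Of the cell cycle list 15 of 24 were lower and 0 higher, with *Ube2c* at -2.56 ± 0.49, *Birc5* at -2.13 ± 0.32 and *Mki67* at -1.07 ± 0.28. Summed over that list, the level was 9730 to 11010 CPM at P7 and 1327 to 5498 at P14. Of 10 glycolysis and hypoxia genes 8 were lower, among them *Eno1* (-2.03 ± 0.36), *Gapdh* (-1.43 ± 0.22) and *Ldha* (-1.06 ± 0.19), and of 16 oxidative phosphorylation genes 6 were lower, 3 without CD8 chain cells or without P7 replicate 1 or 3. Of the naive list 4 of 10 were higher, *Il7r* (1.67 ± 0.30), *Tcf7* (1.49 ± 0.36), *Ccr7* (1.19 ± 0.34) and *Satb1* (1.06 ± 0.26), but 1 without P7 replicate 3. The phosphatase *Dusp1* rose by 1.66 ± 0.26. The ectoenzyme *Nt5e* (CD73), which makes the suppressor adenosine, rose by 1.92 ± 0.49, *Il1rl1* by 1.65 ± 0.46 and the TGF-β inhibitor *Smad7* by 1.23 ± 0.33, and all of these 3 lost the call without P7 replicate 1 (1.54, 1.33 and 1.19, edgeR, adjusted p = 0.081, 0.11 and 0.064). *Ly6a* fell by 1.63 ± 0.35 on the log2 scale and *Lgals1* by 1.03 ± 0.18. The identity list had 0 of 10 called. Among markers of other cell types the epithelial *Scgb1a1* was higher at P14 (1.03 ± 0.22, 1 of 2 tested), as were the stromal *Mgp* (2.02 ± 0.56, 1 of 1) and *Cd74* (2.73 ± 0.83), and their part in the other results was not tested. Age and pool cannot be told apart, and without the pool shared by P3 and P7, which left 1 normoxic P7 mouse under the same assumption, 23 genes were called, of them 5 cell cycle genes and 0 of the naive, glycolysis and oxidative phosphorylation lists.

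In 85% O2 the same interval called 43 genes higher at P14 (1.47%) and 51 lower (1.74%), and none of the 24 cell cycle genes. *Ly6a* rose by 3.79 ± 0.37 (edgeR, adjusted p = 1.8e-07), the transcriptional regulator *Id2* of effector lymphocytes by 2.18 ± 0.31, *Gzmb* by 2.07 ± 0.48 and *Nkg7* by 1.91 ± 0.50. Neither *Gzmb* (1.02, edgeR, adjusted p = 0.51) nor *Nkg7* (1.18, edgeR, adjusted p = 0.35) was called without CD8 chain cells. Of 14 tissue regulatory T cell genes 4 were higher, *Cxcr6* (1.73 ± 0.48), *Ccr2* (1.22 ± 0.27), *Icos* (1.03 ± 0.25) and *Rora* (0.98 ± 0.24), and of 6 suppression and repair genes 2, *Gzmb* and *Fgl2* (1.88 ± 0.50). With DESeq2, or without replicate 2 or 3 of the P14 mice or replicate 6 of the P7 mice, 0 of these 6 were called, and the tissue list had 1 call without P14 replicate 3 or P7 replicate 4. Of the naive list 4 of 10 were lower, among them *Il6ra* (-1.99 ± 0.48), *Tcf7* (-1.96 ± 0.40) and *S1pr1* (-1.20 ± 0.34), but 2 without P14 replicate 3 or P7 replicate 6 and 1 of 8 with all mice of at least 5 cells. The haemoglobin gene *Hbb-bs* fell with age at both oxygen levels, by 2.86 ± 0.92 in 21% O2 and by 4.05 ± 0.96 in 85% O2 on the log2 scale. *Trdc* of γδ T cells (-2.83 ± 0.78), *Ighm* of B cells (-1.73 ± 0.31) and *Cd74* (-2.97 ± 0.74) were lower at P14. Without CD8 chain cells 5 of 13 tissue genes were higher and 2 of 10 naive genes lower. The contrasts in 21% O2, in 85% O2 and between oxygen levels share mice.

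Last, the oxygen effect in regulatory T cells was set against that in other T cells of the same mice, with the mouse as a block and both ages together. Against CD4+ T cells 0 of 2969 genes differed (edgeR, percentage called 0, with 198 at an unadjusted p under 0.05, and DESeq2 called 0). Against CD8+ T cells, in the 15 mice with at least 10 cells of both, 1 of 2487 differed (0.0402%, with 142 at an unadjusted p under 0.05), *Hbb-bs* (3.86, edgeR), which DESeq2 put at -0.22 and did not call. The log2 effect in regulatory T cells minus that in CD8+ T cells was -1.24 ± 0.42 for *Mki67* and -0.69 ± 0.59 for *Ly6a*, neither of them called. Because both ages entered 1 effect, opposite changes such as those of *Ly6a* at P7 and P14 offset each other, and the oxygen effect at P14 alone was not compared with that in other T cells. Whether any effect was particular to regulatory T cells is thus not answered here.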

How the data were processed

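Lung cells of 36 mice were profiled in 6 droplet libraries. The authors deposited raw UMI counts per gene and cell, sample barcode counts and a table of cell annotations, which also holds the percent of mitochondrial counts deposited for each cell. Per the labels and the methods, reads were aligned to mm10 with Cell Ranger (3.0.2, from the submitters' processing notes), cells were assigned to mice with deMULTIplex, and samples were integrated and clustered in Seurat after SCTransform, with cell cycle scores and the mitochondrial share regressed out before clustering. Cell types and phase calls are those deposited. Doublets were not called again here, and no column without a sample was used (0).

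The UMI counts of each mouse's regulatory T cells were summed over 22100 genes, and mice with at least 10 such cells were kept. Genes passing filterByExpr were tested in edgeR (4.0.16, R 4.3.3, limma 3.58.1) with TMM scaling and the quasi-likelihood test, all 4 groups of P7 and P14 in 1 fit, calling genes at adjusted p under 0.05 and detection in 10% or more of the cells of either group. DESeq2 (1.42.0) was an alternative. For shares, exact permutation tests (two-sided) permuted the oxygen or age labels of mice (Python 3.11.15, SciPy 1.17.1, NumPy 2.4.6, pandas 2.3.3; 100000 permutations, not exact, for the difference between ages in the oxygen effect; figures with matplotlib 3.10.9), which with 6 against 6 mice cannot go below p = 0.00216. Intervals are exact at 95% and cover counting error only, as does the floor of 3 counts. The pups are separate animals, but those of 1 pool share its libraries. The replicate numbers do not pair mice of different groups, so the block used was the pool.

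The members and the 28 gene lists were chosen with earlier results of these data known. Genes named were the 4 markers, the 10 largest rises and 10 largest falls among called genes whose mean log2 CPM was 5 or more, called members of the lists, and *Xist* and haemoglobin genes. Others were named after their values were seen, namely uncalled members of the lists and *Gzma*. Alternatives were DESeq2, the pool block, mice with at least 5 cells, 10 cells a mouse, equal UMIs per cell, other filters and leaving out mice or the pool shared by P3 and P7. Leaving out cells with a CD8 chain UMI, cells with none of the 4 markers and cells whose sample barcode was not their highest were added after the data had been seen. Some genes are not reported here, though they stay in the counts. The pipeline was tested on simulated data.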

Additional observations from a re-analysis of the deposited data

Results flagged for a closer look

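In 7 of the 138 groups of 4 to 10 mice examined, 1 mouse stood apart from the rest of its group by Dixon's test, and chance alone does so in about 1 group in 20. These were the normoxic P3 replicate 1, with the highest share of regulatory T cells of its group (0.356% of all cells), the hyperoxic P14 replicate 5 for *Ikzf2* (1037 CPM, highest), replicate 3 of that group for *Pdia6* (141, lowest), replicate 1 for *Areg* (273, highest) and for *Xist* (1272, highest), the normoxic P14 replicate 3 for *Nt5e* (132, highest) and replicate 2 of that group for *Cenpf* (172, highest). *Xist* is expressed in females, and its median in the hyperoxic P14 group was 11.7 CPM, so that flag marks the sex of the mouse.

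The oxygen effect differed between P14 and P7 by the edgeR test of the difference itself for 126 genes. For the genes named in the report that passed it, the difference in log2 effect (P14 minus P7) was 5.42 for *Ly6a*, 3.48 for *Cenpf*, 3.30 for *Ccna2*, 3.26 for *Hist1h4d*, 3.14 for *Cdk1*, 3.04 for *Prc1*, 3.01 for *Gzmb*, 2.91 for *Birc5*, 2.84 for *Ccnb2*, 2.76 for *Ube2c*, 2.56 for *Top2a*, 2.49 for *Rrm2*, 2.41 for *Eno1*, 2.33 for *Zbp1*, 1.74 for *Mki67*, 1.70 for *Psmb9*, 1.52 for *Hmgb2*, 1.42 for *Aldoa*, 1.40 for *Trac*, 1.33 for *Lgals1*, 1.29 for *Gapdh*, 1.11 for *Psmb8*, 1.09 for *Hsp90b1* and 1.08 for *Cox5b*. It was -5.70 for *Cd74*, -4.52 for *Cd79b*, -3.45 for *Tcf7*, -3.28 for *4833420G17Rik*, -2.61 for *Il6ra*, -2.58 for *Ccr7*, -2.57 for *Smim4*, -2.0 for *Ighm* and -1.72 for *Il7r*. Of these genes *Ly6a* had passed the test at P7 as well, in the opposite direction.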

How the results depend on the processing

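The shares of regulatory T cells changed direction by denominator or pool. The P3 oxygen difference was -0.0255 percentage points without the pool shared by P3 and P7, and the P7 one was -2.01 as a percentage of lymphoid cells and -5.90 of T cells. The P14 minus P7 difference in 21% O2 was -3.66 of lymphoid and -7.64 of T cells, and that in 85% O2 was -0.310 without the shared pool. Within lymphoid cells the oxygen differences without that pool were -0.229 at P3 and 1.30 at P7, and the differences between ages in the oxygen effect were -2.29 (P7 minus P3) and 5.44 (P14 minus P7). The rises from P3 lost the call as a percentage of lymphoid cells, of T cells and without the shared pool: 6.32, 11.2 and 0.654 to P7 in 21% O2, 4.04, 5.11 and 1.23 to P7 in 85% O2, 2.67, 3.56 and 0.827 to P14 in 21% O2, and 5.82, 10.1 and 0.918 to P14 in 85% O2. Without the shared pool 3 mice a group are left at P3 and P7. From P3 to P7 the exact test then cannot go below p = 0.1, so the loss there says nothing of stability. From P3 to P14, with 3 against 6 mice, exact permutation tests gave p = 0.0238 in 21% O2 (adjusted p = 0.173) and p = 0.0595 in 85% O2 (adjusted p = 0.243). The UMI difference at P7 was -1872.5 in mice with at least 10 cells.

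Genes called for oxygen over both ages numbered 5 with DESeq2, 58 without a filter on low counts, 2 without CD8 chain cells and 60 without the shared pool. With the pool as a replicate block they numbered 2, against 1 at P7, 249 at P14 and 123 for the difference between ages. At P7 the count was 17 without a filter and 0 with 10 cells a mouse, with mice of at least 5 cells, without CD8 chain cells and without the shared pool. At P14 it was 39 with 10 cells a mouse, 126 with mice of at least 5 cells, 136 without CD8 chain cells and 153 without cells of no marker. Of the 263 genes called at P14 in the main fit, these settings tested 173, 197, 238 and 240 in that order. For the difference between ages these were 35 with 10 cells, 77 with equal UMIs, 33 without CD8 chain cells and 9 without the shared pool, where the lone normoxic P7 mouse is assumed to vary like the other groups. With age in 21% O2 they were 170 with equal UMIs, 199 without CD8 chain cells and 23 without the shared pool, and in 85% O2 30 with at least 5 cells, 62 with equal UMIs and 159 without a filter. Without a filter the split of higher and lower calls was 201 and 67 at P14. Against CD4+ T cells 2 were called without a filter and 1 with depth drawn down. Against CD8+ T cells 15 were called without a filter and 0 with at least 5 cells, DESeq2 or depth drawn down, and *Hbb-bs* reversed to -0.22 with DESeq2. Leaving out 1 of the 10 mice in groups of 3 or 4 (the 6 normoxic P14 mice were not left out) gave 0 to 25 calls over both ages, 1 to 13 at P7, 111 to 281 at P14, 60 to 168 for the difference, 106 to 359 with age in 21% O2 and 33 to 125 in 85% O2. The cause of these shifts was not tested. Few cells per mouse and 3 mice a group at P7 limit what could be detected.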
